A study of Mus musculus with 16 samples.

Results

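Haemoglobin and red cell transcripts were followed in mouse hippocampus through 5 genes: Hbb-bs and Hbb-bt, which encode the adult beta chains of haemoglobin, Hba-a1 and Hba-a2, which encode its alpha chains, and Alas2, the red cell form of the enzyme that begins haem synthesis. They were chosen by name, as the rows of the deposited table whose Ensembl identifier maps to these symbols, and all 5 were found among the 19449 genes listed. The study set hippocampus of WT mice beside that of mice lacking Tspo (labelled KO), a mitochondrial outer membrane protein, after injection of PBS (the vehicle) or LPS (lipopolysaccharide, a bacterial cell wall component that provokes inflammation). The 4 groups were WT PBS, WT LPS, KO PBS and KO LPS, with 4 libraries each, all from mice of 3 months. The labels used here do not give the LPS dose, the interval to dissection, the strain, the sex, how the KO allele was made, or whether the tissue was perfused. Nor do they say that each library is a separate mouse, so p-values measure the spread between libraries.

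Haemoglobin is a tetramer of alpha and beta chains that each hold a haem group, and it carries oxygen in red cells. In mammals, mature red cells have lost their nucleus, and young red cells (reticulocytes) still hold globin messenger RNA, so tissue that contains blood yields these transcripts. Low globin expression has also been described in neurons and glia. In bulk tissue, fewer cells of a type and less RNA per cell cannot be told apart.

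The beta genes lie side by side on the minus strand of chromosome 7 and the alpha genes on the plus strand of chromosome 11, in the GENCODE M21 annotation of GRCm38. Hbb-bs (ENSMUSG00000052305) spans chr7:103826534-103828096 and Hbb-bt (ENSMUSG00000073940) spans chr7:103812524-103813996. Hba-a1 (ENSMUSG00000069919) spans chr11:32283511-32284465 and Hba-a2 (ENSMUSG00000069917) spans chr11:32296489-32297298. The main transcript of each globin has 3 exons. Alas2 (ENSMUSG00000025270) spans chrX:150547375-150570638 on the plus strand, with 11 exons. The files name no genome build, so these positions come from the annotation.

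Each pair of copies is nearly identical, which bears on how reads were divided between them. In the annotated transcripts the coding sequences of Hbb-bs and Hbb-bt differed at 1 of 444 bases and those of Hba-a1 and Hba-a2 at 1 of 429. The 60 coding bases around each difference are given here, from base 385 for the beta copies and base 351 for the alpha copies (counted from 1 at the start codon), with the differing base in capitals. The changes are C417T from Hbb-bs to Hbb-bt and C381T from Hba-a1 to Hba-a2.
Hbb-bs: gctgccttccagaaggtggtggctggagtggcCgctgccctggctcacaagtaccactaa
Hbb-bt: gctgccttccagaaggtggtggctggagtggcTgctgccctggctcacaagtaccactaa
Hba-a1: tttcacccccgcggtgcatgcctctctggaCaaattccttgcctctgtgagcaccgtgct
Hba-a2: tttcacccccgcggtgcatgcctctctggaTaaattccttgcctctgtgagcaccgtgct
Of all 31-base words in the annotated transcripts of Hba-a2, 92.6% also occurred in Hba-a1, and 59.4% of those of Hbb-bt occurred in Hbb-bs. Hba-a1 and Hbb-bs shared 0 such words. The level of a single copy is therefore uncertain, and for each comparison the differences of the summed copies are given too.

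Because the 5 genes varied together across libraries, as described further on, the 100 bases before their starts are shown, with searched words in capitals. The windows come from RefSeq (GRCm38.p6), where all 5 genes had an entry, and read 5′ to 3′ along the gene: chr7:103827929-103828028 for Hbb-bs and chr7:103813924-103814023 for Hbb-bt (both minus strand), chr11:32296392-32296491 for Hba-a2 and chrX:150547317-150547416 for Alas2 (both plus strand). The Hba-a1 window is not printed because the 250 bases before its start share a run of 247 identical bases with those of Hba-a2. GENCODE places some starts of these genes further upstream.
Hbb-bs: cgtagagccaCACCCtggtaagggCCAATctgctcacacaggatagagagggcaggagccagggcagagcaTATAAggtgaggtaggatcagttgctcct
Hbb-bt: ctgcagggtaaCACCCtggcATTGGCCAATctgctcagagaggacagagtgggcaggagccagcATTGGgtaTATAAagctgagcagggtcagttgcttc
Hba-a2: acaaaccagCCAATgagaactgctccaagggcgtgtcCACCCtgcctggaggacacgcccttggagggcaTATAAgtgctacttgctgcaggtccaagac
Alas2: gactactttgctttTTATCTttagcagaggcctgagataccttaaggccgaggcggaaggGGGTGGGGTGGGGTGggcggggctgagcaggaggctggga
The words searched, on both strands, were TATAA (the core of the TATA box), CCAAT (the CCAAT box), CACCC (a word bound by Krüppel-like factors) and, for GATA factors, GATA with A or T before it and A or G after it. Neighbouring CCAAT matches on opposite strands meet in Hbb-bt but do not overlap. TATAA began 29 bases before the start in Hbb-bs, 28 in Hbb-bt, 27 in Hba-a1 and 30 in Hba-a2, and within 100 bases it occurred in 10.7% of 27025 RefSeq promoters. CCAAT occurred within 100 bases in the 4 globins and in 19.6% of promoters. CACCC occurred there in all 5 genes, with 3 copies in the Alas2 window read on the opposite strand, and in 26.8% of promoters. A GATA word lay within 100 bases only in Alas2, at 86 bases (10.6% of promoters). Within 250 bases it was also present in Hbb-bs, Hba-a1 and Hba-a2 (27.1% of promoters), and its absence from the Hbb-bt window says only that these letters are not there. A match is a description of the letters and not of a bound site.

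Libraries held between 30198619 and 50009041 counts. The 4 globin genes together made up 0.00122% to 0.0802% of them, or 406 to 27813 counts. The 8 hippocampal neuron markers, such as Prox1 and Neurod6, had at least 124 counts in every library. Several libraries stood apart from their labels or from the rest. Tspo, the targeted gene, had 5 to 20 counts in 7 KO libraries but 98 in the library labelled KO PBS replicate 1, against 62 to 194 under WT PBS. Lcn2, an acute-phase gene, had 7104 to 11917 counts in WT LPS replicates 2 to 4, 21 in the library labelled WT LPS replicate 1 and 0 to 4 in the KO LPS libraries. The 8 choroid plexus markers tested, among them Ttr, averaged 3.99 log2 units below the WT PBS mean in WT PBS replicate 1 and 4.09 below it in WT LPS replicate 1. In the other 14 libraries the same average lay between -0.13 and 2.54. WT PBS replicates 2 and 3 resembled each other more than any other pair within a group (chi-square of 3.78 per gene against 12.3 to 113). Their difference is still beyond sampling noise, which does not show that they come from separate mice, and both were kept.

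The beta globins were highest in 3 of the 4 WT PBS libraries. Hbb-bs, the more abundant beta copy, read 279, 178, 161 and 23.96 CPM (the count scaled to a common, TMM-adjusted library size) in WT PBS replicates 1 to 4, and 4.86, 41.2, 27.6 and 42.2 CPM in WT LPS. In KO PBS it read 86.3, 6.64, 59.1 and 7.11 CPM, and in KO LPS 4.48, 54.0, 76.1 and 12.3 CPM. The groups overlapped, because WT PBS replicate 4 lay below 3 WT LPS, 2 KO PBS and 2 KO LPS libraries. Hbb-bt, the less abundant beta copy, read 72.9, 36.7, 33.7 and 4.15 CPM in WT PBS and 0.916, 5.52, 4.2 and 5.09 CPM in WT LPS. Its KO PBS libraries read 12.9, 1.52, 9.35 and 1.21 CPM and its KO LPS libraries 0.632, 8.21, 13.95 and 2.21 CPM. The same 3 WT PBS libraries led again, and the lowest of all 16 was KO LPS replicate 1 for both beta genes.

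The alpha globins were also highest in WT PBS replicates 1 to 3. Hba-a1 read 190, 89.0, 83.9 and 14.0 CPM in WT PBS and 2.17, 23.3, 12.1 and 23.9 CPM in WT LPS. In KO PBS it read 46.3, 4.004, 31.3 and 2.52 CPM, and in KO LPS 3.33, 30.1, 35.8 and 7.005 CPM. Its WT PBS replicate 4 lay above 2 of the 4 WT LPS libraries, so those groups overlapped too. Hba-a2 read 265, 122, 121.3 and 20.4 CPM in WT PBS and 4.46, 35.2, 17.3 and 35.3 CPM in WT LPS. It read 63.1, 4.46, 47.4 and 7.11 CPM in KO PBS and 3.87, 43.9, 49.7 and 8.41 CPM in KO LPS. In each KO group, 2 libraries were high and 2 low for both alpha genes.

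Alas2 was the rarest of the 5, with 4 to 389 counts per library. It read 11.3, 5.55, 5.84 and 0.879 CPM in WT PBS and 0.122, 1.14, 0.881 and 1.19 CPM in WT LPS. In KO PBS it read 2.11, 0.212, 1.54 and 0.436 CPM, and in KO LPS 0.243, 1.71, 2.14 and 0.388 CPM. Its 3 highest libraries were WT PBS replicates 1 to 3, as for every globin, and its lowest was WT LPS replicate 1, which held 4 counts.

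**Figure D1:**
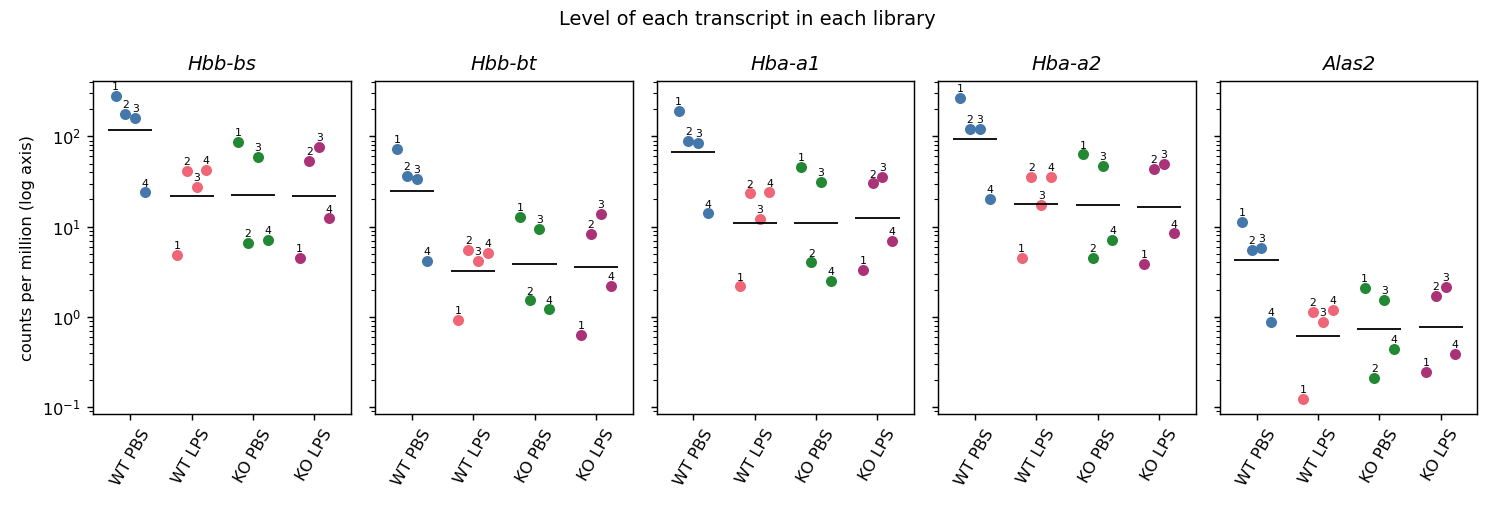
CPM (log axis) of Hbb-bs, Hbb-bt, Hba-a1, Hba-a2 and Alas2 in each library, with points numbered by replicate, 4 per group, and a line at the mean on the log scale. WT PBS replicates 1 to 3 are the highest for every gene, and each group spans at least 6.03-fold.

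Summed over the 4 genes, globin CPM ranged 65.6-fold, from 12.3 in KO LPS replicate 1 to 807 in WT PBS replicate 1. The next highest were WT PBS replicates 2 and 3 (425 and 400), then KO PBS replicate 1 (209) and KO LPS replicate 3 (175). WT PBS replicate 4, at 62.6, lay beside WT LPS replicate 3 at 61.3. Group means were 424 ± 304 in WT PBS, 71.4 ± 44.6 in WT LPS, 97.5 ± 96.0 in KO PBS and 88.5 ± 79.7 in KO LPS (SD, n = 4). The means of the 3 groups other than WT PBS differed from each other by less than their SDs.

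Library-to-library variation exceeded that of most genes. The within-group SD of log2 CPM was 1.74 for Hbb-bs, 1.69 for Hbb-bt, 1.75 for Hba-a1, 1.68 for Hba-a2 and 1.44 for Alas2. These ranked between 86 and 172 of the 16269 genes tested, for which the median SD was 0.16 and the 95th percentile 0.74.

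LPS against PBS in WT gave negative differences for all 5 genes, none of which passed the test. Hbb-bs differed by -2.46 ± 0.99 on the log2 scale (standard error; edgeR quasi-likelihood test, adjusted p = 0.138). Hbb-bt differed by -3.21 ± 0.98 (edgeR adjusted p = 0.0557) and Alas2 by -2.79 ± 0.86 (edgeR adjusted p = 0.0567). These 2 genes were the nearest to the threshold of 0.05. Hba-a1 differed by -2.60 ± 0.99 (edgeR adjusted p = 0.118) and Hba-a2 by -2.51 ± 0.98 (edgeR adjusted p = 0.124). With the copies summed, the difference was -2.55 ± 0.99 for alpha-globin (edgeR adjusted p = 0.125) and -2.58 ± 0.998 for beta-globin (edgeR adjusted p = 0.123). edgeR called 1394 of 16269 genes in this comparison (8.57%) and 0 of the 5. An unadjusted p under 0.05 was reached by all 5 and by 3965 of the 16269 genes. DESeq2 and limma-voom with quality weights each called 2 of the 5, Hbb-bt and Alas2. The share of all genes that these tools called is not given here. The median difference of the 5 was -2.60, against 0.00 over all genes tested. An exact two-sided permutation test of log2 CPM gave p = 0.114 for Hbb-bs, Hbb-bt and Alas2 and p = 0.0857 for Hba-a1 and Hba-a2, where 0.0286 is the smallest that 4 against 4 libraries allow. In all, 20 such exact tests were run, 1 for each gene in each of the 4 comparisons of groups.

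WT PBS replicates 1 to 3, the highest in globin, share a title code of unstated meaning (A10) that no other library carries. They were set aside after their levels were seen, which lowers the WT PBS mean by construction and is not a test. With these 3 libraries set aside, which leaves 1 WT PBS library assumed to vary like the other groups, the LPS difference in WT was 0.29 for Hbb-bs, -0.06 for Hbb-bt, 0.16 for Hba-a1, 0.19 for Hba-a2 and -0.05 for Alas2. The code and the WT PBS group cannot be told apart for these 3 libraries. WT LPS replicates 2 to 4 share another code, B9, which KO PBS replicate 4 also carries. WT PBS replicate 4 and WT LPS replicate 1 share the code A9 and read 62.6 and 12.4 globin CPM. Apart from these A9 libraries, LPS against PBS in WT was also B9 against A10. The part of the codes in the result was not tested. Leaving out WT PBS replicate 4 brought the number called by edgeR to 2, as did leaving out KO PBS replicate 2. Leaving out KO LPS replicate 1 brought it to 1. The share of all genes called in these fits is not given here. With WT PBS replicate 1 and WT LPS replicate 1, the libraries nearly without choroid plexus transcripts, both set aside, the differences were -1.70, -2.32, -1.64, -1.57 and -1.92 for Hbb-bs, Hbb-bt, Hba-a1, Hba-a2 and Alas2.

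In KO hippocampus, the LPS and PBS libraries overlapped for all 5 genes. The differences were -0.12 ± 0.95 for Hbb-bs, -0.02 ± 0.93 for Hbb-bt, -0.15 ± 0.96 for Hba-a1, -0.21 ± 0.94 for Hba-a2 and 0.03 ± 0.85 for Alas2. Summed copies gave -0.18 ± 0.95 for alpha-globin and -0.11 ± 0.95 for beta-globin. edgeR called 0 of the 5 and 0 of 16269 genes (0%), with 1120 genes at an unadjusted p under 0.05, none of them among the 5. DESeq2 called 3 genes and limma-voom 0, again without any of the 5. The smallest adjusted p of the 5 was 0.957 in edgeR, and exact permutation p-values ran from 0.857 to 1. Without the library labelled KO PBS replicate 1, whose Tspo count of 98 lay in the WT range, the differences were 0.59, 0.62, 0.59, 0.42 and 0.60 for Hbb-bs, Hbb-bt, Hba-a1, Hba-a2 and Alas2, and edgeR again called 0 of the 5.

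KO against WT under PBS gave differences about as large as LPS did in WT, and both comparisons use the same 4 WT PBS libraries. Hbb-bs differed by -2.005 ± 0.97, Hbb-bt by -2.54 ± 0.95, Hba-a1 by -2.15 ± 0.98, Hba-a2 by -2.11 ± 0.96 and Alas2 by -2.42 ± 0.84. edgeR called 6 of 16269 genes (0.0369%) and 0 of the 5, each of which had an adjusted p of 0.918. An unadjusted p under 0.05 was reached by 4 of the 5 and by 841 of the 16269 genes. With the copies summed, the difference was -2.13 ± 0.98 for alpha-globin and -2.09 ± 0.98 for beta-globin. DESeq2 and limma-voom also called 0 of the 5. Exact permutation p-values were 0.0857 for Hbb-bt and Alas2 and 0.143 for the other 3 genes. Setting aside WT PBS replicates 1 to 3, the highest in globin, lowers the WT PBS mean by construction. The differences were then 0.74, 0.61, 0.60, 0.59 and 0.31 for Hbb-bs, Hbb-bt, Hba-a1, Hba-a2 and Alas2. Without KO PBS replicate 1 they were -2.72, -3.18, -2.89, -2.74 and -2.99 in the same order. The mean level of 10 endothelial markers was -0.34 to -0.16 log2 units from the WT PBS mean in the KO PBS libraries, below all WT PBS libraries (-0.10 to 0.17). edgeR called 0 of these 10 markers in this comparison. In KO PBS replicates 1 to 4 their score was -0.34, -0.32, -0.25 and -0.16, beside globin CPM of 209, 16.6, 147 and 17.95. The part of endothelial content in the result was not tested.

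Under LPS, KO against WT gave positive differences smaller than their standard errors: 0.34 ± 0.95 for Hbb-bs, 0.65 ± 0.94 for Hbb-bt, 0.30 ± 0.96 for Hba-a1, 0.19 ± 0.94 for Hba-a2 and 0.40 ± 0.85 for Alas2. edgeR called 1935 genes (11.9%) and 0 of the 5, whose adjusted p-values ran from 0.691 to 0.920. None of the 5 had an unadjusted p under 0.05, against 4632 of all genes tested. DESeq2 and limma-voom called 0 of the 5 as well. Summed copies differed by 0.24 ± 0.95 for alpha-globin and 0.38 ± 0.96 for beta-globin. Exact permutation p-values ran from 0.8286 to 1. The KO LPS libraries lay both above and below WT LPS for Hbb-bs, Hbb-bt and Hba-a2, since replicates 2 and 3 were above all WT LPS libraries and replicate 1 below them.

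The test of whether the LPS difference itself varied with genotype called none of the 5. The interaction was 2.34 ± 1.36 for Hbb-bs, 3.20 ± 1.33 for Hbb-bt, 2.45 ± 1.36 for Hba-a1, 2.30 ± 1.33 for Hba-a2 and 2.83 ± 1.19 for Alas2. For summed copies it was 2.37 ± 1.35 for alpha-globin and 2.47 ± 1.36 for beta-globin. edgeR called 187 genes (1.15%). Adjusted p-values of the 5 ran from 0.181 to 0.330 in edgeR. Hbb-bt and Alas2 had an unadjusted p under 0.05, as did 3520 of all genes tested. DESeq2 and limma-voom called 0 of the 5.

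**Figure D2:**
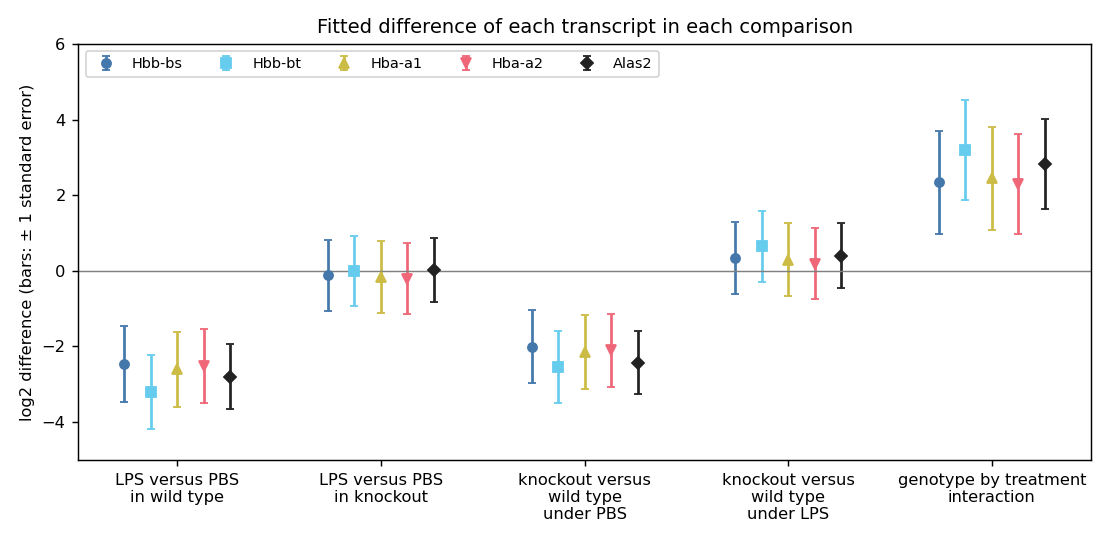
Fitted log2 difference of the 5 genes in the 5 comparisons, with bars of 1 standard error (edgeR, 16 libraries in 1 fit). The differences that use WT PBS libraries lie between -3.21 and -2.005 or, for the interaction, between 2.30 and 3.20, and the others lie within 0.65 of 0.

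Across libraries the levels of the 5 genes varied together. Pearson's r of log2 CPM over 16 libraries was 0.974 to 0.994 for the 10 pairs (Spearman's rho 0.968 to 0.997). After each group's mean was subtracted, r was 0.965 to 0.992, so the shared variation lay within groups as well. The points share library and depth, and reads that fit either copy of a pair add to r within that pair. Hba-a1 and Hbb-bs, which share no 31-base word, gave 0.992, and Alas2 gave 0.974 to 0.984 with the 4 globins.

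**Figure D3:**
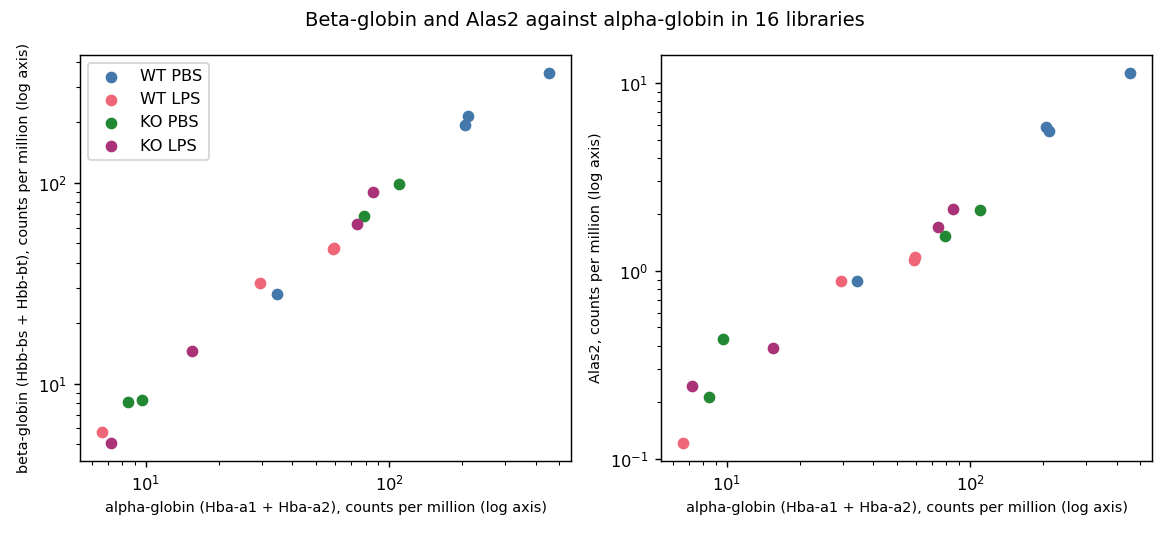
Beta-globin (left) and Alas2 (right) against alpha-globin in CPM on log axes, 1 point per library, coloured by group. The 16 points follow 1 line in both panels, from KO LPS and WT LPS libraries at the bottom left to WT PBS replicate 1 at the top right.

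Beta-globin made up 41.5% to 52.0% of globin counts in the 16 libraries, with group means of 46.9% ± 3.2 in WT PBS, 46.8% ± 3.58 in WT LPS, 47.4% ± 1.26 in KO PBS and 46.8% ± 4.19 in KO LPS (SD, n = 4). These means differed by less than the SD. Counting errors alone were smaller than the spread between the libraries with the most globin counts. WT PBS replicate 1 gave 43.6% (95% exact binomial interval 43.0 to 44.2) and replicate 2 gave 50.5% (49.7 to 51.4). Such intervals cover counting error only.

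Within the alpha pair, Hba-a1 took 39.8% to 47.3% of counts in 14 libraries. It took 26.1% in KO PBS replicate 4 (exact binomial interval 21.1 to 31.6) and 32.7% in WT LPS replicate 1 (26.5 to 39.4). Both held few alpha counts, 287 and 217.

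Within the beta pair, the share of Hbb-bt was 20.7%, 17.1%, 17.3% and 14.8% in WT PBS replicates 1 to 4. It was 15.9%, 11.8%, 13.2% and 10.8% in WT LPS. The ranges met, because WT LPS replicate 1, the library with 21 Lcn2 counts, lay above WT PBS replicate 4, while the other 3 WT LPS libraries lay below all WT PBS libraries. The share was 13.04%, 18.6%, 13.7% and 14.5% in KO PBS and 12.4%, 13.2%, 15.5% and 15.2% in KO LPS. WT PBS replicate 1 had the highest share of all, 20.7% (exact binomial interval 19.99 to 21.4), which did not meet the intervals of replicates 2 to 4.

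Alas2 made up 0.976% to 2.37% of the counts of the 5 genes, with a median of 1.27%. In WT PBS the share was 1.38%, 1.29%, 1.44% and 1.38%, although globin CPM differed 12.9-fold among these 4 libraries. The highest share, 2.37% in KO PBS replicate 4, rested on 13 Alas2 counts (exact binomial interval 1.27 to 4.02).

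**Figure D4:**
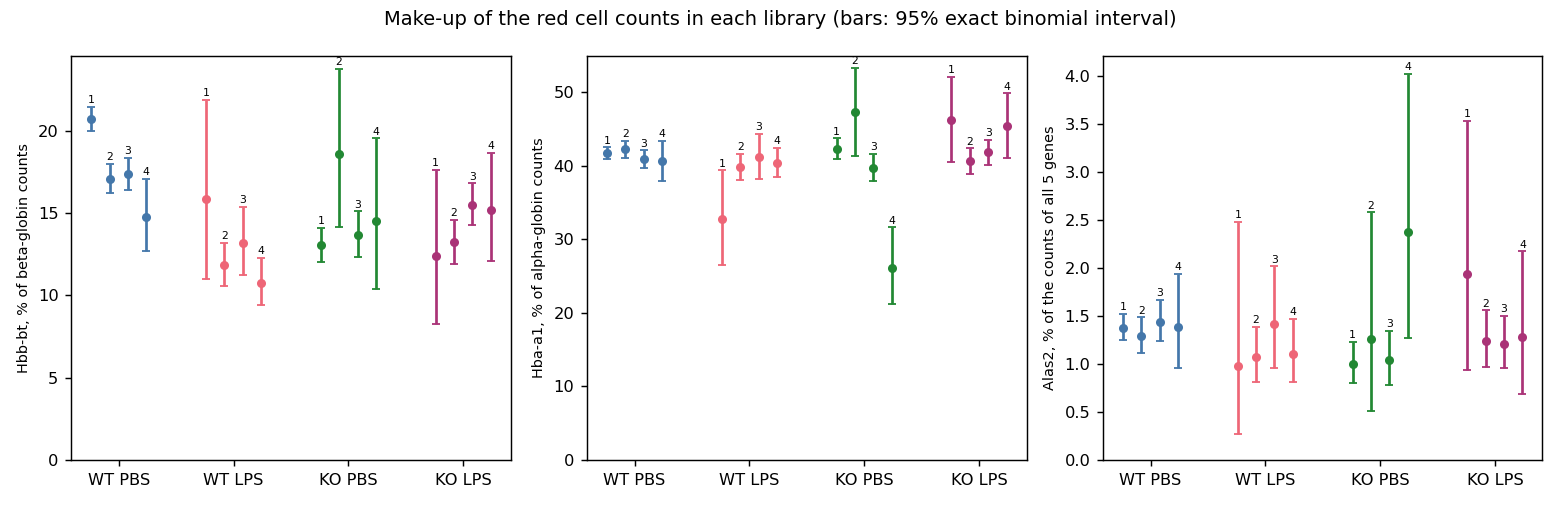
Share of Hbb-bt in beta-globin counts, of Hba-a1 in alpha-globin counts and of Alas2 in the counts of the 5 genes, in percent, for each library (numbers give the replicate), with 95% exact binomial intervals. Most libraries lie near 15%, 41% and 1.3%, and the widest intervals belong to libraries with few counts.

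Per length of the main transcript, Hbb-bs and Hba-a2 were the most abundant. Their CPM per kilobase had medians of 66.4 and 63.7 over the 16 libraries, followed by Hba-a1 at 33.8, Hbb-bt at 7.55 and Alas2 at 0.572. Alas2 was lowest, Hbb-bt next and then Hba-a1 in all 16 libraries, and Hba-a2 passed Hbb-bs in WT PBS replicate 1, WT LPS replicate 1 and KO PBS replicate 4. The main Hba-a1 transcript is annotated at 699 bases and that of Hba-a2 at 554, which lowers the per-length value of Hba-a1.

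Few other red cell transcripts reached a testable level. Of 18 further red cell genes, 15 were in the table and 6 had enough counts to be tested, while Ahsp, Rhag and Gata1 were not analysed here. In edgeR, LPS in WT lowered 1 of the 6, Bpgm, an enzyme of bisphosphoglycerate synthesis, with a log2 difference of -0.23 ± 0.06 (edgeR adjusted p = 0.0282), beside 8.57% of all genes called there, and no other comparison called any. The median difference of the 6 was -0.20 there, against 0.00 over all genes. Sptb and Ank1, membrane skeleton genes that neurons also express, had 7902 to 16022 and 1832 to 5779 counts per library. Slc4a1, the red cell anion exchanger, had 41, 14, 11 and 2 counts in WT PBS replicates 1 to 4, 1 to 6 in WT LPS, 2 to 14 in KO PBS and 0 to 8 in KO LPS. Trim10, a gene of late red cell maturation, had 23, 12, 3 and 2 counts in WT PBS and at most 2 in any other library. These 2 genes were chosen after their values were seen, and others of the list did not share the pattern. Mean CPM was highest in WT PBS for 7 of the 15. Klf1, an erythroid transcription factor, averaged 0.120 CPM in WT PBS and 0.165 to 0.179 CPM in the other groups, and Ermap, a red cell membrane protein, averaged 0.523 CPM in WT PBS and 1.01 CPM in KO LPS. KO PBS replicate 2, among the lowest in globin, had 14 Slc4a1 counts. Over 16 libraries, r of Slc4a1 with the mean of the 5 genes was 0.53.

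The brain globins Cygb and Ngb varied little with the haemoglobin genes. Of 9 other globins listed, 6 were in the table and 4 were tested, and edgeR called none in any comparison. Cygb (cytoglobin) lay between 52.8 and 80.03 CPM and Ngb (neuroglobin) between 0.940 and 5.64 CPM over the 16 libraries. Their r with the mean of the 5 genes was 0.12 and 0.09, and that of Hbq1a, an alpha-like globin with 6 to 22 counts per library, was 0.60. The embryonic beta-like gene Hbb-y had 0 to 4 counts per library.

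Haem synthesis and mitochondrial import were measured through 14 further genes, all tested. Bulk tissue does not show which cells these transcripts came from. LPS in WT raised 1, Alas1, the form of the first enzyme found in all tissues, by 0.24 ± 0.07 (edgeR adjusted p = 0.0421). It lowered 3, namely Cpox and Uros, which are pathway enzymes, and Abcb10, a mitochondrial transporter, with differences of -0.25, -0.25 and -0.27. These 4 of 14 stood beside 8.57% of all genes called. KO against WT under LPS raised 1, Alad, the second enzyme, by 0.72 ± 0.19 (edgeR adjusted p = 0.0249), and 2, Alas1 and Ppox, were lower, at -0.23 and -0.37, beside 11.9% of all genes. edgeR called none of the 14 in the other 3 comparisons. The r of Alas1 with the mean of the 5 genes was -0.22, against 0.984 for Alas2 with the other 4.

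Of 11 genes that clear haemoglobin and haem, 10 were tested. edgeR called 2 higher and 1 lower with LPS in WT (8.57% of all genes were called there), 2 lower in KO against WT under LPS (11.9% of all genes) and none elsewhere. The mean score of the list was 0.38 to 0.44 in WT LPS replicates 2 to 4 and 0.07 in replicate 1, the library with 21 Lcn2 counts. Cd163, the macrophage receptor for haemoglobin bound to haptoglobin, rose by 1.76 ± 0.28 in WT after LPS (edgeR adjusted p = 0.00343), from a mean of 0.802 to 2.73 CPM. Hmox1, the inducible haem oxygenase, rose by 0.71 ± 0.17 (edgeR adjusted p = 0.0204) and Slc48a1, a haem transporter, fell by 0.29 ± 0.08 (edgeR adjusted p = 0.0313). Under LPS, both were lower in KO than in WT, with differences of -1.12 ± 0.27 for Cd163 and -0.69 ± 0.17 for Hmox1. Across libraries neither moved with the haemoglobin genes, with r of -0.34 for Cd163 and -0.20 for Hmox1. Haptoglobin (Hp) had 1 to 58 counts and was not tested.

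Markers of other blood and vessel cells were measured beside the red cell genes. Of 14 circulating leukocyte markers, 5 were tested, and edgeR called 3 higher with LPS in WT: S100a8 by 5.30 ± 1.07, S100a9 by 4.37 ± 0.91 and Ngp by 3.62 ± 0.85, all neutrophil genes (8.57% of all genes were called there). In KO against WT under LPS it called 2 lower, S100a8 by -3.19 ± 0.88 and S100a9 by -3.37 ± 0.83 (11.9% of all genes). The mean score of the 5 tested markers was 2.06 to 2.83 log2 units above the WT PBS mean in WT LPS replicates 2 to 4 and 0.69 in replicate 1. The haemoglobin genes and Alas2 scored -2.35 to -1.69 in replicates 2 to 4 and -4.63 in replicate 1, the lowest of WT LPS in both scores. With group means removed, r with the mean of the haemoglobin genes and Alas2 was 0.67 for Ngp, 0.58 for S100a9 and 0.23 for S100a8. It was -0.49 for Cd79a and -0.22 for Ccr2. Without that step, r over the 16 libraries was 0.13 for Ngp and S100a9 and -0.13 for S100a8. For Cd79a and Ccr2 it was -0.38 and -0.19. S100a8 and Ngp had 0 counts in 3 libraries each, and S100a9 in 1. Of 8 platelet markers, 3 were tested and edgeR called none in any comparison. Of 10 endothelial markers, LPS in WT raised 1, Ly6c1, and lowered 3, Flt1, Itm2a and Tek, beside 8.57% of all genes. In KO against WT under LPS, edgeR called 1 higher, Itm2a (1.15), and 4 lower, among them Cldn5 (-0.57), Ly6c1 (-1.62) and Pecam1 (-0.88), beside 11.9% of all genes. The endothelial score lay between -0.46 and 0.17 in all 16 libraries, and the highest was WT PBS replicate 1, the library with the most globin. All KO LPS libraries (-0.46 to -0.17), like all KO PBS libraries, lay below all WT PBS libraries. Pericyte and smooth muscle markers (10 genes) scored -0.61 to 0.33 and meningeal fibroblast markers (8 genes) -0.44 to 0.71, again with the highest value in WT PBS replicate 1. WT PBS replicates 2 and 3, next in globin, did not share these high scores. They scored -0.04 and -0.04 for endothelial, -0.19 and -0.16 for pericyte and smooth muscle, and -0.32 and -0.34 for meningeal fibroblast markers. The part of vessel or meningeal content in the globin levels was not tested.

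**Figure D5:**
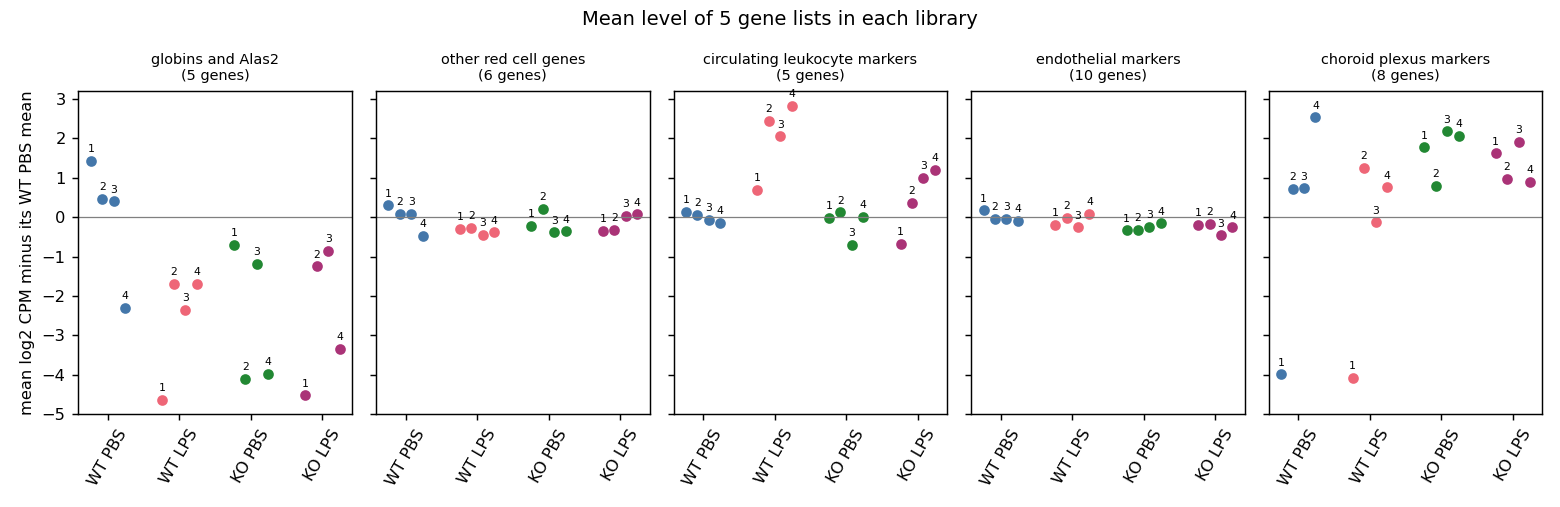
Mean log2 CPM of the genes tested in 5 lists, relative to the WT PBS mean, in each library (numbers give the replicate). The haemoglobin genes and Alas2 span -4.63 to 1.44, other red cell genes -0.48 to 0.30 and endothelial markers -0.46 to 0.17, while leukocyte markers are highest in WT LPS replicates 2 to 4.

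Outside these lists, few genes followed the haemoglobin pattern closely. The highest r with the mean log2 CPM of the 5 genes over 16 libraries, leaving out predicted genes, was 0.76 for Slc6a3, the dopamine transporter, with 1 to 124 counts per library. Gab2, an adaptor protein, and Klhl14 also reached 0.76, Scrt2 0.75, Gjc1, Ccdc141 and Art3 0.73, Th, which makes the dopamine precursor, and Tmem117 0.71, and Klk6 0.70. With group means removed, the 10 highest were Il10ra (0.83), Psmc1 and Nkx2-9 (0.82), Gab2 (0.78), Lyar, Ralb and Ccdc42 (0.77), Ttyh1 (0.76), and Scrt2 and Kcnk6 (0.74). Gab2 and Scrt2 were in both sets. All of these lay below the 0.984 to 0.996 that each of the 5 genes reached with the mean of the other 4.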

How the data were processed

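RNA-seq of total RNA from hippocampus gave 16 libraries, which the authors deposited as 1 table of estimated counts per Ensembl gene, all whole numbers. The submitters' processing notes list Salmon 1.9.0, MultiQC 1.13 and both DESeq and DESeq2. Genome build, annotation, strand handling and filters are not given in the sources used here. The smallest row sum was 10, so rarer genes are not in the table. Symbols came from GENCODE M21. 120 genes had no symbol there and held 0.106% of counts. Depth was 30198619 to 50009041 counts per library.

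Counts were analysed with edgeR 4.0.16 (R 4.3.3): filterByExpr, which kept 16269 genes, TMM, 1 mean per group over 16 libraries, quasi-likelihood tests and Benjamini-Hochberg adjustment over all genes tested, called under 0.05. Log2 CPM used a prior count of 2. Exact permutation tests and exact binomial intervals used SciPy 1.17.1. List scores are mean log2 CPM minus the WT PBS mean. Spread and likeness to the 5 genes were computed on log2 CPM of the genes tested. The scripts were tested on simulated data.

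Alternatives were RLE scaling, DESeq2 1.42.0, limma-voom (limma 3.58.1) with quality weights, no filter or a filter of 1 CPM in 4 libraries, a replicate block, only the groups compared, each library left out, WT PBS replicates 2 and 3 summed, copies summed, and the 5 genes left out of library sizes. Another prior count (0.5) was tried for the permutation tests and Spearman's rho for likeness. Setting aside WT PBS replicate 1 with WT LPS replicate 1, or WT PBS replicates 1 to 3, was chosen after seeing the data. The 5 genes and all lists were chosen with earlier results of these data known. Genes named from a list are up to 4 that passed with the smallest p or, where none passed, up to 3 of the most abundant. Genes of like pattern are the 10 with the highest r. Slc4a1, Trim10, Klf1, Ermap, Hbb-y and Hp were named after their values were seen. Of the red cell list, 1 gene is not reported here.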

Additional observations from a re-analysis of the deposited data

Results flagged for a closer look

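In WT LPS, 1 library lay far below the other 3 for 2 of the 5 genes. The gap from WT LPS replicate 1 to the nearest library was 0.845 of the group's range of log2 CPM for Hbb-bt and 0.853 for Alas2. Both exceed Dixon's 95% critical value for 4 libraries, which chance passes in about 1 in 20 groups. Each of the 5 genes was screened in each of the 4 groups, at both ends. The 2 flags fall on the same library in genes that varied together (r of 0.98 over 16 libraries), so they are not independent. The level in that library was 0.916 CPM for Hbb-bt and 0.122 CPM for Alas2. Its Lcn2 count was 21, against 7104 to 11917 in the other WT LPS libraries, and its choroid plexus score was -4.09. What these differences have to do with each other was not tested.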

How the results depend on the processing

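Under 28 alternatives (27 for the interaction), the number of the 5 genes called was 0 in each of KO LPS against KO PBS, KO against WT under PBS, KO against WT under LPS and the interaction. In WT, LPS against PBS gave 0 with edgeR, 2 with DESeq2 and 2 with limma-voom, and 0 to 2 with each library left out. For DESeq2, limma-voom and the fits with a library left out, the share of all genes called in this comparison is not given here. DESeq2 put Hbb-bt at -3.23 and Alas2 at -2.82. Setting aside WT PBS replicates 1 to 3 reversed Hbb-bs, Hba-a1 and Hba-a2 in WT (0.29, 0.16 and 0.19), all 5 genes in KO against WT under PBS (0.74, 0.61, 0.60, 0.59 and 0.31) and Hbb-bs, Hba-a1 and Hba-a2 in the interaction (-0.41, -0.30 and -0.40). By construction this leaves 1 WT PBS library, the lowest of its group for all 5 genes, so the direction of these changes was set by the choice.

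The small differences changed sign more often. In KO LPS against KO PBS, DESeq2 gave 0.0021 for Hbb-bt and limma-voom -0.28 for Alas2. In KO against WT under LPS, limma-voom gave -0.39, -0.20, -0.20, -0.36 and -0.13 for Hbb-bs, Hbb-bt, Hba-a1, Hba-a2 and Alas2. Setting aside WT PBS replicate 1 with WT LPS replicate 1 gave -0.017, -0.063 and -0.15 for Hbb-bs, Hba-a1 and Hba-a2. The cause was not tested.

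With each library left out, the KO difference between LPS and PBS ran from -0.76 to 0.59 for Hbb-bs, -0.77 to 0.62 for Hbb-bt, -0.65 to 0.59 for Hba-a1, -0.71 to 0.42 for Hba-a2 and -0.47 to 0.60 for Alas2, with the highest value of each without KO PBS replicate 1. KO against WT under LPS ran from -0.30 to 0.71, -0.10 to 1.04, -0.20 to 0.65, -0.30 to 0.56 and -0.10 to 0.75 in the same order. The WT difference between LPS and PBS stayed negative, between -3.59 and -1.91, as did KO against WT under PBS, between -3.18 and -1.52.

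With the replicate number as a block, 0 of the 5 genes were called in any comparison. Hbb-bt (0.11) and Hba-a1 (0.081) changed sign in KO LPS against KO PBS, and Hbb-bs (-0.16), Hba-a1 (-0.16) and Hba-a2 (-0.26) in KO against WT under LPS. Same-numbered libraries deviated together with correlations of -0.22 to 0.36, not all above 0.1, so the numbers were not taken to pair them. The block moved all calls from 1394 to 1069 genes for LPS in WT, from 6 to 3 for KO against WT under PBS and from 187 to 0 for the interaction. Alas2, with 4 to 389 counts per library, is the gene most limited by depth.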
